A study of Homo sapiens with 6 samples.

Results

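MALAT1 and NEAT1 are long non-coding RNAs that stay in the cell nucleus and are transcribed from neighbouring genes on human chromosome 11. Their contacts with Argonaute were described from every crosslink site whose gene name in the deposited site list is exactly MALAT1 or NEAT1, which gave 376 of 16230 sites, 165 in MALAT1 and 211 in NEAT1. All 376 sites were annotated as non-coding RNA on the plus strand. Another 4 sites whose name joins NEAT1 with its transcript names, with 32 crosslinked reads in all, were kept apart.

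The data came from PAR-CLIP, in which 4-thiouridine in RNA is crosslinked by ultraviolet light to the bound protein and each crosslinked T is read as a base change. HK2 is an immortalized epithelial cell line from the human kidney's proximal tubule, an established line, and its genotype is labelled WT. All libraries came from cells starved of serum for 24 h, labelled with 4-thiouridine at 100 uM over the final 20 h and irradiated at 365 nm. The control group had 2 anti-Argonaute libraries, the TGFbeta1 group had 2 from cells that also received 20 ng/mL of TGF-beta1 over 24 h. The 2 IgG pull-downs were not analysed here, so no pull-down background stands beside the values. The labels do not say whether replicates were separate cultures, so a p-value measures only how these libraries vary, and that variation may be technical. Depth was 1714445 and 1926255 reads in control replicates 1 and 2, and 5293207 and 3415699 reads in TGFbeta1 replicates 1 and 2.

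Argonaute proteins carry microRNAs, which find their targets mainly through the seed, bases 2 to 8 of the microRNA, and repress mRNAs chiefly through 3′ UTRs in the cytoplasm. MALAT1 gathers in nuclear speckles, bodies rich in splicing factors. The long transcript of NEAT1 is the scaffold of paraspeckles, nuclear bodies built with the proteins NONO and SFPQ, and a short transcript shares its 5′ end. Both RNAs have been studied as possible sponges for microRNAs. TGF-beta1 is a cytokine that drives fibrosis and loss of epithelial features in kidney tubule cells. Of 15 proximal tubule markers, LRP2 and CUBN included, 0 had a site in the list, and of 8 epithelial markers JUP, CLDN1 and KRT18 did; 0 of 7 markers of other cells were listed. Of the 2 epithelial genes with enough reads to test, 0 passed with limma and DESeq2 and 1 with edgeR, CLDN1 of tight junctions, at 14.6 ± 6.80 RPM in controls and 3.69 ± 0.79 RPM after TGF-beta1 (TMM-scaled, SD, n = 2 each; limma adjusted p = 0.0559). A gene without a site has no Argonaute contact listed here, and its RNA level was not measured by this list.

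The sequences below come from the 8 most crosslinked sites of each gene, plus the most crosslinked MALAT1 site that lies against a seed match. Each is a window of 29 bases on the plus strand of hg38, read 5′ to 3′, with the crosslinked T at base 15 and any seed match of the authors in capitals. The first 3 are NEAT1 sites with a match that starts directly after the crosslinked T, for miR-29a in the first and let-7 in the others. The last 4 are from MALAT1, with no match, a miR-181 match across the T, a miR-205 match further along, and a miR-181a-2-3p match that begins at the T. These are examples and not a fair sample, since the other NEAT1 sites among its 8 have no match or one further off. Over all sites a match lay against the T at 6.16% in NEAT1 and 4.24% in MALAT1, with overlapping 95% Wilson intervals.
NEAT1 chr11:65438824-65438852: gctattatgaacaatGGTGCTAtgaacag
NEAT1 chr11:65429440-65429468: ggtgactgaacatctCTACCTtgtgtcaa
NEAT1 chr11:65437714-65437742: ctggtcttggtctgtCTACCTCggcatct
MALAT1 chr11:65501606-65501634: attgacaaactgggttagagaaggagtgt
MALAT1 chr11:65503774-65503802: agcggaagaacGAATGTaactttaaggca
MALAT1 chr11:65503475-65503503: tgtttagcattgaatctcTGAAGGctcta
MALAT1 chr11:65503669-65503697: tgtttgtctgtagtTCAGTGttggggcaa

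The mature microRNAs that these matches and the commonest families turn on are given from RefSeq (GRCh38.p14), with bases 2 to 8 in capitals. Of 70 microRNA names in the seed annotation, 65 were found there, and the listed seed was bases 2 to 8 for 63 of them. For miR-29a-3p and miR-16-2-3p the listed seed is offset by 1 base, so the miR-29a match above pairs with bases 1 to 7 of the RefSeq sequence. The crosslinked T before that match is complementary to base 8, so a match to bases 2 to 8 begins at the T.
let-7a-5p: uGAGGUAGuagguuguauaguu
miR-29a-3p: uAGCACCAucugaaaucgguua
miR-27a-3p: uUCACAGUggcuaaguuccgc
miR-205-5p: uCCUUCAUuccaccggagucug
miR-181a-5p: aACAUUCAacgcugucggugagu
miR-181a-2-3p: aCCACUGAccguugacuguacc
miR-30a-5p: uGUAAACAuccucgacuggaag

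MALAT1 was among the most crosslinked RNAs of every library. It held 654 and 491 crosslinked reads in control replicates 1 and 2, and 1396 and 731 in TGFbeta1 replicates 1 and 2. These are 381, 255, 264 and 214 RPM, that is, crosslinked reads relative to library depth. By these values MALAT1 ranked 2, 4, 2 and 4 among all named genes. By reads that cover the sites, crosslinked or not, it ranked 1 in all 4 libraries. It took 7.22, 5.41, 6.56 and 4.37% of all covering reads but 1.77, 0.912, 1.86 and 1.01% of all crosslinked reads.

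For NEAT1 there were 344 and 337 crosslinked reads in control replicates 1 and 2, then 453 and 314 in TGFbeta1 replicates 1 and 2. Its levels were 201 and 175 RPM in control replicates 1 and 2, and 85.6 and 91.9 RPM in TGFbeta1 replicates 1 and 2. Its rank went with these, at 4 and 9 in the controls and 10 and 18 after TGF-beta1. Per kilobase of gene, MALAT1 had 43.5, 29.035, 30.04 and 24.4 RPM and NEAT1 had 8.82, 7.69, 3.76 and 4.04 RPM, so MALAT1 was the higher in each library on this scale.

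Levels between libraries were compared after TMM scaling, which sets the bulk of genes level. On that scale the mean of MALAT1 over the 4 libraries was 287 RPM (range 184 to 396), next below DCBLD2, a membrane protein gene, at 366 RPM (295 to 445). NEAT1 had 134 RPM (89.4 to 190), next above TMBIM6, of a membrane protein that restrains cell death, at 131 RPM (109.5 to 143). The ranges of each lncRNA and the neighbour named overlap, so these orders do not exceed the spread between libraries. Totals of different genes here are sums over sites and are not corrected for length.

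**Figure D1:**
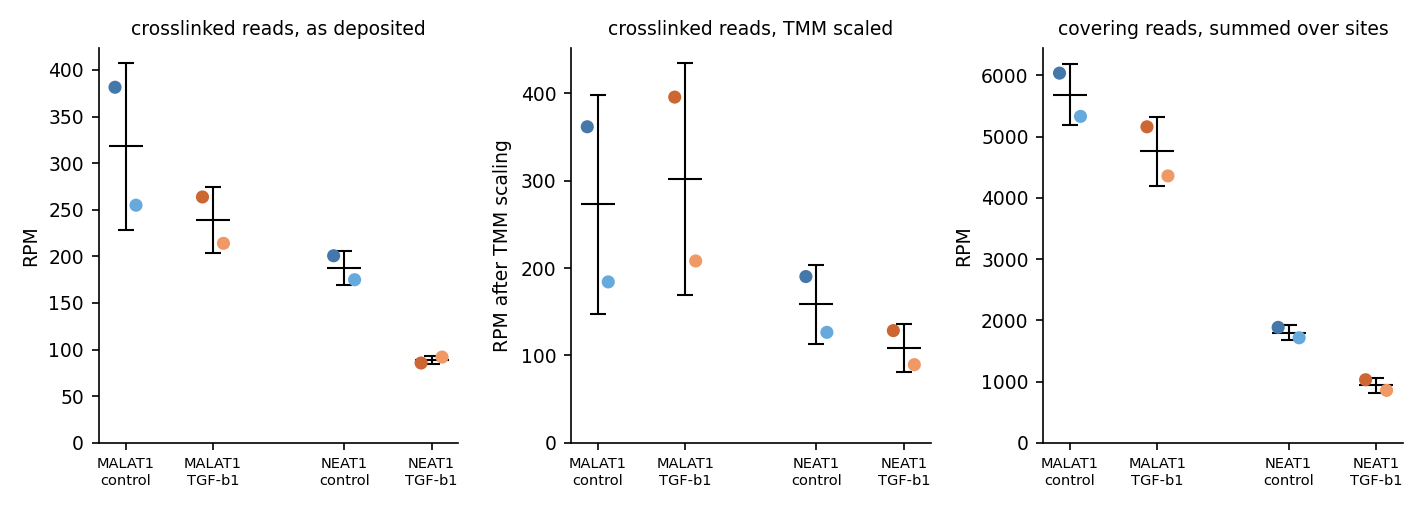
Summed level of MALAT1 and NEAT1 in each library, as RPM of crosslinked reads as deposited (left), the same after TMM scaling (middle) and RPM of covering reads summed over sites (right). Points are libraries, horizontal bars the mean and vertical bars 1 SD (n = 2); NEAT1 sits at 201 and 175 RPM in the controls and 85.6 and 91.9 RPM after TGF-beta1, while its TMM-scaled values overlap.

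The comparison of TGFbeta1 with control asks whether Argonaute contact with each lncRNA differs after the cytokine. Neither lncRNA passed the test. In these bulk libraries fewer cells with the RNA, less RNA per cell and less Argonaute on each RNA cannot be told apart. MALAT1 had TMM-scaled levels of 362 and 184 RPM in the controls and 396 and 208 RPM after TGF-beta1, and the groups overlap. Its mean was 273 ± 126 RPM in controls and 302 ± 133 RPM after treatment (SD, n = 2 each). The log2 difference was 0.15 ± 0.34 (SE; limma adjusted p = 0.892). It was −0.34 without control replicate 2 and −0.26 without TGFbeta1 replicate 1.

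NEAT1 had TMM-scaled levels of 190 and 126 RPM in the controls and 128 and 89.4 RPM after TGF-beta1. The lowest control lies just below the highest treated library, so the groups overlap. The mean was 158 ± 45.2 RPM in controls and 109 ± 27.6 RPM after treatment (SD, n = 2 each), 1.45-fold lower. The log2 difference was −0.53 ± 0.25 (SE), with an unadjusted p of 0.0608 and a limma adjusted p of 0.402. It was −0.17 without control replicate 1 and −0.19 without TGFbeta1 replicate 2. Of 1266 genes tested, 39 passed an adjusted p of 0.05, which is 3.08%, and 1.5% passed as lower. Of the 2 lncRNAs, 0 passed with limma, 0 at an unadjusted p under 0.05, and 0 with edgeR or DESeq2 on the recovered reads.

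The size of the NEAT1 difference turned on the scaling between libraries. In RPM as deposited the control mean was 188 ± 18.2 and the treated mean 88.8 ± 4.49 (SD, n = 2 each), 2.12-fold lower, and the groups do not overlap. On that scale both treated libraries lay below both controls for 40% of tested genes, and the median gene was at −0.45 on the log2 scale, against 0.02 with TMM. The log2 difference without TMM was −1.07 for NEAT1 (limma adjusted p = 0.250) and −0.39 for MALAT1 (limma adjusted p = 0.711). MALAT1 thus lay above 0 with TMM and below 0 without it, and NEAT1 lay below 0 on both scales.

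A ratio inside a library needs no scaling between libraries. NEAT1 crosslinked reads were 0.526 and 0.686 of MALAT1 reads in control replicates 1 and 2, and 0.324 and 0.430 in TGFbeta1 replicates 1 and 2. Both treated libraries lay below both controls. On the log2 scale the difference was −0.69 (control −0.73 ± 0.27, treated −1.42 ± 0.29; SD, n = 2 each; exact two-sided permutation p = 0.333, the smallest that 2 against 2 libraries allow). Both treated libraries lay below both controls for 13.4% of 1265 genes set against MALAT1 in the same way. With covering reads the difference was −0.68.

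Crosslinks were spread over nearly the whole of both transcripts rather than at a few places. MALAT1 (ENSG00000251562.7, chr11:65497738-65506516 in RefSeq on GRCh38.p14, 8779 nt) had 18.8 sites per kb. Its first site lay 1467 nt from the gene start and its last 518 nt before the end, and every kilobase between held at least 9 sites. The median gap between sites was 33.5 nt and the longest 237 nt. NEAT1 (ENSG00000245532.7, chr11:65422798-65445540, 22743 nt) had 9.28 sites per kb, from 91 nt after the start to 164 nt before the end. Its median gap was 42 nt and its longest 1600 nt, and the kilobase from 19 to 20 kb held 0 sites.

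**Figure D2:**
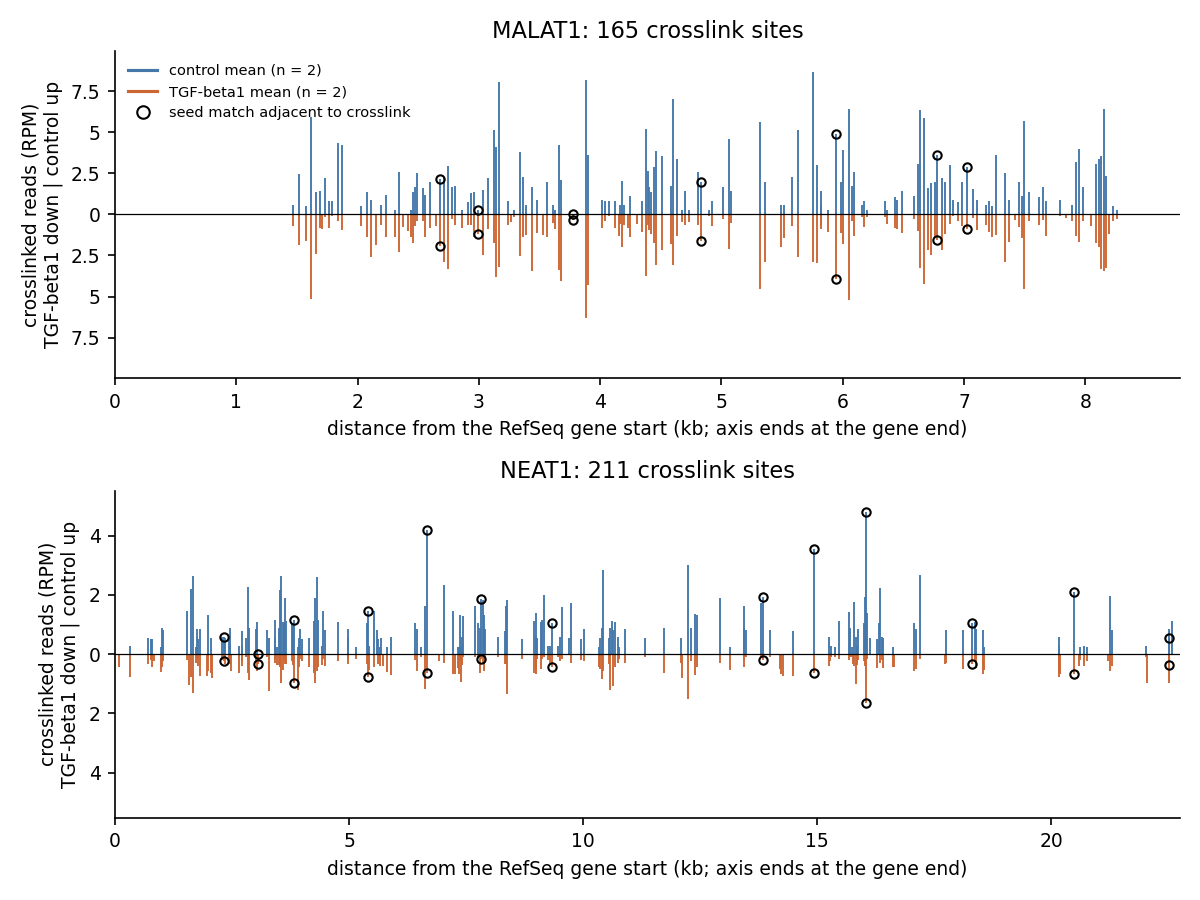
Crosslinked reads at each site of MALAT1 and NEAT1 by distance from the gene start (kb), as the mean RPM of the 2 control libraries (up) and the 2 TGFbeta1 libraries (down). Open circles mark the 7 MALAT1 and 13 NEAT1 sites whose seed match lies against the crosslinked T; the first 1467 nt of MALAT1 hold no site.

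Most NEAT1 sites lay beyond the 5′ part of the gene, in the stretch that only the long, paraspeckle-forming transcript covers. That stretch is also most of the 22743 nt of the gene, and per kilobase both sites and reads were denser in the first 4 kb. Past the first 4 kb lay 153 of 211 sites, with 75.3 and 76.9% of NEAT1 crosslinked reads in the controls and 68.9 and 71.0% after TGF-beta1. The table gave 184 sites to the long transcript alone, but 31 of these lie in the first 4 kb, and the 27 sites given to other transcripts too lie within 3551 nt of the start. The first 4 kb held 58 sites with 24.7, 23.1, 31.1 and 28.98% of the reads, and the kilobase from 3 to 4 kb was the densest with 23 sites. Where the short and long transcripts overlap their reads cannot be told apart. The part of the gene before its midpoint held 139 sites and 63.5 to 66.9% of the reads. In MALAT1 that part held 75 of 165 sites, with 37.2 and 41.1% of reads in the controls and 45.6 and 47.6% after TGF-beta1.

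The most crosslinked site of MALAT1 held 2.61% of its TMM-scaled reads and the top 10 sites 19.3%. In NEAT1 the top site held 2.09% and the top 10 sites 13.9%. Among other genes with at least 100 sites, DCBLD2 had 10.1% at its top site and 33.1% at its top 10. FN1, the gene of the matrix protein fibronectin, had 24.4% at its top site and 36.2% at its top 10. These shares also fall with the number of sites, and they are a description without a test.

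**Figure D3:**
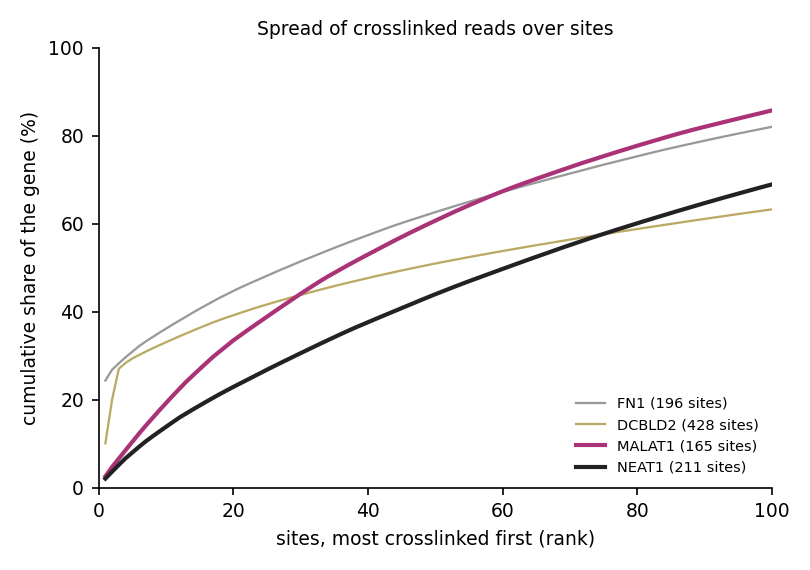
Cumulative share of TMM-scaled crosslinked reads (%, mean of 4 libraries) against site rank, most crosslinked site first, for MALAT1, NEAT1, DCBLD2 and FN1, which each have at least 100 sites; the first 100 ranks are drawn. The top 10 sites hold 13.9% of NEAT1 and 19.3% of MALAT1, against 36.2% of FN1.

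Single sites were thinly read. A MALAT1 site held a median of 14 crosslinked reads over the 4 libraries together (range 2 to 88) and a NEAT1 site a median of 6 (2 to 32), against 7 over all sites. In MALAT1 86 sites (52.1%) were crosslinked in every library, in NEAT1 43 (20.4%), and over all sites 37.9%. For 15 MALAT1 sites (9.09%) and 23 NEAT1 sites (10.9%) neither control library had a crosslink, against 11.5% of all sites. For 0 MALAT1 and 7 NEAT1 sites neither treated library had one, which was not counted over all sites. The treated libraries are the deeper ones.

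The most crosslinked MALAT1 site lay at position 65501620 and has no seed match. It had 13, 17, 42 and 16 reads in control replicates 1 and 2 and TGFbeta1 replicates 1 and 2, or 7.58, 8.83, 7.93 and 4.68 RPM, and the groups overlap. Next came position 65503788, with the miR-181 match across the crosslinked T, at 14, 9, 32 and 15 reads. Position 65503489, with the miR-205 match, had 19 and 12 reads in the controls and 17 and 9 in the deeper treated libraries, or 11.1 and 6.23 RPM against 3.21 and 2.63 RPM. In RPM its groups do not overlap, which held in the same direction for 21.1% of all sites, 21.8% of MALAT1 sites and 29.4% of NEAT1 sites. After TMM scaling the groups of the miR-205 site overlap. Its log2 difference was −0.70 ± 0.50 (SE; limma adjusted p = 0.479).

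In NEAT1 the most crosslinked site was the miR-29a site at position 65438838, 16040 nt from the gene start. It had 4, 14, 8 and 6 reads, or 2.33, 7.27, 1.51 and 1.76 RPM. In RPM both treated libraries lay below both controls and control replicate 2 stood highest, but after TMM scaling the groups overlap. The second was the let-7 site at 65429454, with 9 and 6 reads in the controls and 2 and 3 after TGF-beta1, or 5.25 and 3.11 RPM against 0.378 and 0.878 RPM. The other let-7 site, at 65437728, had 5 and 8 reads against 2 and 3, or 2.92 and 4.15 RPM against 0.378 and 0.878 RPM. All 3 lie beyond the first 4 kb, where the long transcript alone is annotated. In each the treated libraries lay below the controls in RPM, and after TMM scaling this held for the let-7 sites only. None had enough reads to be tested alone.

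Of the 376 sites, 21 had enough reads for the site test, all of them in MALAT1, and 0 passed. Over all 1059 sites tested, 75 passed, which is 7.08%. With edgeR and DESeq2 0 of the 21 passed, against 82 and 42 over all sites. At an unadjusted p under 0.05 with limma 1 of the 21 passed, against 204 of the 1059. That one, at 65501417, had 0 and 8 reads in the controls and 18 and 16 after TGF-beta1, with a log2 difference of 1.64 ± 0.63 (SE; limma adjusted p = 0.134). Of the 21 sites, 14 lay above 0, against 565 of the 1059 tested. The median log2 difference was 0.32, against 0.05 over all tested sites. All 21 belong to MALAT1 and are not replicates. Without control replicate 1, the MALAT1 site at 65500483 passed (10, 0, 20 and 10 reads in the 4 libraries), where the other control library is listed at 0.

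Each site was also set against the other sites of its own transcript with diffSplice, which removes a change shared by the whole transcript. Of the 21 MALAT1 sites, 0 passed and 0 had an unadjusted p under 0.05, with a lowest adjusted p of 0.893. The same test called 0 of 512 sites over all genes, or 0%. On simulated data of the same depth, with changes put only in the better-read sites, it recovered 36.1% of sites changed 4-fold within their gene. The simulation left out other differences between libraries, so recovery in these data may differ.

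Counted over every site, tested or not, a lower treated mean was more frequent in NEAT1 than in MALAT1. The treated mean after TMM scaling was the lower at 126 of 211 NEAT1 sites (59.7%), 59 of 165 MALAT1 sites (35.8%) and 42.8% of all sites. Both treated libraries lay below both controls at 41 NEAT1 sites (19.4%) and 12 MALAT1 sites (7.27%), against 13.5% of all sites. Both lay above both controls at 30 NEAT1 sites (14.2%) and 42 MALAT1 sites (25.5%), against 25.5% of all sites. Sites of a transcript share its amount and often its reads, so these counts describe 2 transcripts and are not replicates.

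Covering reads are more numerous and allowed more sites to be tested, but the authors' table lists a coverage of 0 wherever a library has no crosslink, and the test was made with and without such sites. With all sites 327 of the 376 were tested and 0 passed with limma (lowest adjusted p = 0.0577). Over all 7340 sites tested 0 passed, or 0%. At an unadjusted p under 0.05 with limma there were 45 of the 327, against 1099 of the 7340. At sites crosslinked in every library some passed. In NEAT1 41 such sites were tested, of which 39 lay below 0 and 8 passed as lower after TGF-beta1. In MALAT1 86 were tested, 47 lay below 0 and 0 passed. Over all 3692 sites tested this way 5.5% passed in either direction and 2.79% as lower. The median log2 difference was −0.56 in NEAT1, −0.05 in MALAT1 and 0.04 over all.

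The lowest adjusted p of the 8 belonged to the let-7 site at 65437728, with 32 and 36 covering reads in the controls and 17 and 15 after TGF-beta1. These are 18.7 and 18.7 RPM against 3.21 and 4.39 RPM, and the log2 difference was −1.69 ± 0.42 (SE; limma adjusted p = 0.0028). The miR-29a site at 65438838 had 45 and 62 covering reads against 36 and 33, or 26.2 and 32.2 RPM against 6.80 and 9.66 RPM (log2 difference −1.34 ± 0.38; limma adjusted p = 0.0153). The other 6 lay at positions 65438815, 65431144, 65431752, 65431778, 65435188 and 65433439, with adjusted p from 0.009 to 0.0487. The 8 sites lie in 6 stretches of the long transcript, since 65438815 neighbours the miR-29a site and 65431752 neighbours 65431778, and neighbours can share reads. None of the 127 sites tested differed from the rest of its transcript on covering reads by diffSplice (lowest adjusted p = 1.000), and 2 did at an unadjusted p under 0.05.

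Seed matches were less frequent in both lncRNAs than in 3′ UTRs, and the counting intervals do not overlap. The authors' annotation gave a match for 66 of 165 MALAT1 sites (40.0%, 95% Wilson interval 32.8 to 47.6%) and 103 of 211 NEAT1 sites (48.8%, 42.2 to 55.5%). The share was 52.5% in other non-coding RNA, 53.2% in introns, 59.7% in coding sequence and 73.2% (72.1 to 74.3%) in 3′ UTRs. Matches to all of bases 2 to 8 were found at 12 MALAT1 sites (7.27%) and 19 NEAT1 sites (9.005%), against 9.55% in other non-coding RNA and 27.01% in 3′ UTRs. The remaining matches were to bases 2 to 7 (25 and 43 sites), to bases 3 to 8 (25 and 39) or bulged (4 and 2). Intervals treat sites as separate counts and cover counting error only.

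Argonaute typically crosslinks just beside the paired seed, and the authors label such a match adjacent. In their table these matches start 0 or 1 base from the crosslinked T when they pair with bases 2 to 8 or 3 to 8, 1 or 2 bases after it when they pair with bases 2 to 7, and 1 base after it when bulged. Adjacent matches were at 7 MALAT1 sites (4.24%, 2.07 to 8.50%) and 13 NEAT1 sites (6.16%, 3.64 to 10.3%). They were at 6.36% of other non-coding sites, 8.81% of intron sites, 20.0% of coding sites and 35.4% of 3′ UTR sites. The MALAT1 sites matched miR-181a-2-3p at 2 sites and miR-200a, miR-320, miR-30, miR-183 and miR-26 at the others. The NEAT1 sites included pairs for let-7, miR-29a and miR-200a, and single sites for miR-181a-2-3p, miR-192, miR-103, miR-148, miR-221, miR-183 and miR-128.

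Counted in reads, adjacent sites held 4.74, 5.30, 5.30 and 4.24% of MALAT1 crosslinked reads in control replicates 1 and 2 and TGFbeta1 replicates 1 and 2. In NEAT1 they held 10.5, 15.7, 7.95 and 8.60%, and in 3′ UTRs 56.7, 59.6, 55.1 and 55.9%. Both lncRNAs lay below 3′ UTRs, coding sequence and introns in 4 of 4 libraries, each with an exact paired permutation p of 0.125, the smallest that 4 libraries allow (0.136 after Benjamini-Hochberg adjustment over 63 such comparisons). MALAT1 also lay below other non-coding RNA in 4 of 4 libraries (mean 4.89 ± 0.51% against 8.82 ± 2.55%, SD, n = 4; exact p = 0.125). NEAT1 lay below it in 1 of 4 (10.7 ± 3.53%; exact p = 0.25). At sites crosslinked in every library the NEAT1 share was 18.7 ± 7.35% against 9.65 ± 2.94% in other non-coding RNA, above it in 4 of 4 libraries (exact p = 0.125).

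The adjacent share of NEAT1 was lower in both treated libraries than in both controls, by 4.82 percentage points (13.1% against 8.27%; exact permutation p = 0.333, the smallest possible). The 13 sites held 20.998 and 27.5 RPM in the controls and 6.80 and 7.90 RPM after TGF-beta1, while the other 198 sites held 180 and 147 RPM against 78.8 and 84.0 RPM. Both sums were lower than in either control on this scale. The adjacent share of MALAT1 was 5.02% in controls and 4.77% after treatment (exact permutation p = 1), and its groups overlap. The share of 3′ UTRs was also lower in both treated libraries, so this order is not peculiar to NEAT1. These comparisons were made after the values had been seen.

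The share of crosslinked reads at sites with any match did not separate the groups. It was 39.4 and 36.5% in the controls and 40.9 and 39.3% after TGF-beta1 in MALAT1 (exact permutation p = 0.667), with overlap. In NEAT1 it was 38.4 and 55.5% against 52.3 and 49.4% (exact permutation p = 1), with control replicate 1 the lowest and control replicate 2 the highest.

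The commonest seed family was miR-205 in MALAT1 and miR-27 in NEAT1. The list holds 42 seed families, of which 26 had a site in MALAT1, 36 in NEAT1 and 25 in both. In MALAT1 miR-205 came first with 9 of 66 matched sites (13.6%, against 4.66% of all matched sites) and 238 reads, with 0 adjacent matches. It was followed by miR-30 with 7 sites and 117 reads, miR-181a-2-3p with 6 sites and 215 reads, and miR-200b/429 with 5 sites. By the authors' microRNA scores, depth-scaled read counts rounded to whole numbers, miR-205 stood at 8403, miR-30 at 50330 and miR-181a-2-3p at 1250. Families were picked here by their number of sites, and no test was made of their shares.

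In NEAT1 miR-27 came first with 9 of 103 matched sites (8.74%, against 7.97% of all matched sites), 64 reads and 0 adjacent matches. MALAT1 had 0 miR-27 sites. The let-7 family, with an authors' score of 97405, had 6 NEAT1 sites with 55 reads, of which 2 were adjacent, and 1 MALAT1 site. miR-29a had 5 NEAT1 sites with 74 reads, 2 of them adjacent, and 0 in MALAT1. miR-148 had 5 NEAT1 sites, 3 of them matching all of bases 2 to 8. The miR-17/20a family, which the title of the study names as its subject, had 2 NEAT1 sites with 6 reads in all and 0 MALAT1 sites. miR-21, the highest score in the list at 376262, had 0 sites in either.

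The crosslinked share of covering reads was lower in both lncRNAs than in the other classes of site in every library. In MALAT1 crosslinked reads were 6.32, 4.78, 5.11 and 4.91% of covering reads in control replicates 1 and 2 and TGFbeta1 replicates 1 and 2. In NEAT1 they were 10.6, 10.2, 8.31 and 10.7%. In 3′ UTRs they were 31.8, 33.1, 24.9 and 26.3%, and in introns 26.8, 29.3, 18.5 and 21.8%. Both lncRNAs lay below 3′ UTRs, coding sequence, introns and other non-coding RNA in 4 of 4 libraries, and MALAT1 below NEAT1 in 4 of 4 (exact paired permutation p = 0.125 for each, the smallest possible). The MALAT1 value was 5.28 ± 0.71% and the NEAT1 value 9.98 ± 1.13%, against 11.5 ± 1.23% in other non-coding RNA and 29.02 ± 4.02% in 3′ UTRs (SD, n = 4).

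Because coverage is listed at 0 where a library has no crosslink, these shares are too high where reads are few. At sites crosslinked in every library MALAT1 stood at 5.28% and NEAT1 at 8.56%, against 12.2% in other non-coding RNA, 20.2% in introns and 32.7% in 3′ UTRs. Site density moves with the share: a read that crosses several sites is counted as covering each, and the median gap of MALAT1, 33.5 nt, is shorter than that of NEAT1, FN1 or DCBLD2. FN1, with a median gap of 50 nt, had 14.2, 14.9, 7.20 and 9.08%, and DCBLD2, at 67 nt, had 15.2, 16.4, 9.91 and 12.2%. The part of site density in the result was not tested. GAS5, a cytoplasmic and nuclear lncRNA that hosts small nucleolar RNAs, had 6.34% over the 4 libraries, close to MALAT1.

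**Figure D4:**
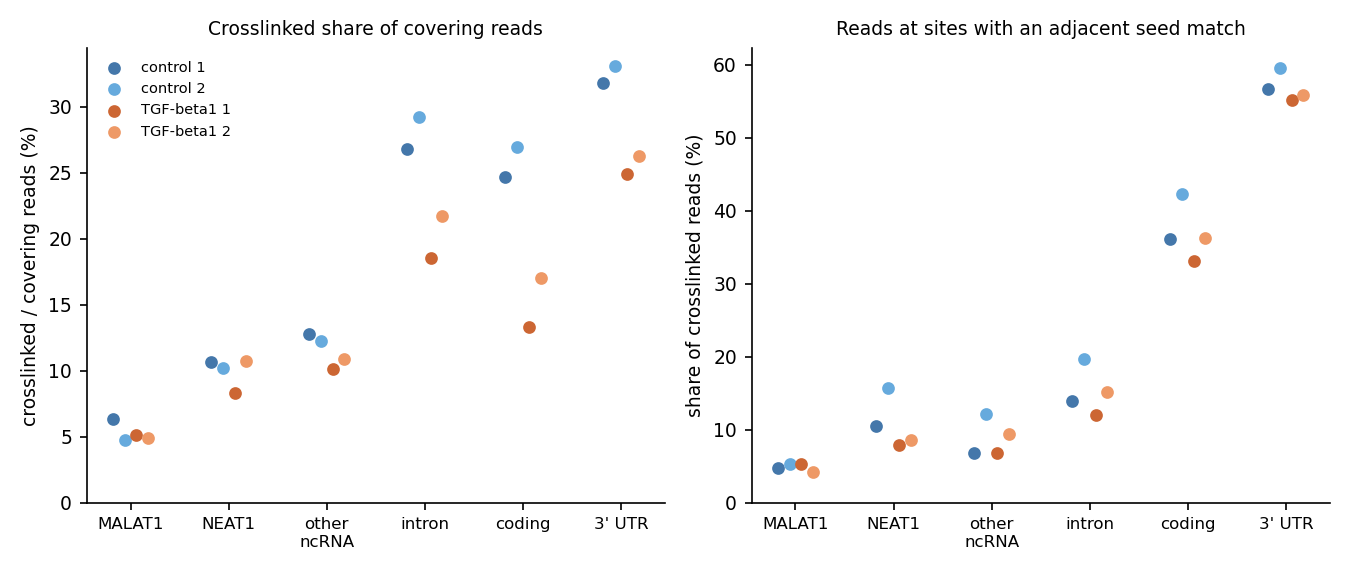
Crosslinked share of covering reads (left, %) and share of crosslinked reads at sites whose seed match lies against the crosslinked T (right, %), for MALAT1, NEAT1 and other classes of site; each point is a library. MALAT1 lies at 4.78 to 6.32% on the left and 4.24 to 5.30% on the right, below the other classes in each library; NEAT1 and other non-coding RNA cross over on the right.

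Base composition around the crosslinked T was counted without a test. The next base was G at 47.3% of MALAT1 sites, 52.6% of NEAT1 sites and 46.4% of all sites. The base before was A at 30.3% and 28.9%, against 40.3% of all sites. The GC content of the window was 40.5% in MALAT1, 44.8% in NEAT1 and 43.1% over all.

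Among other long non-coding RNAs, GAS5 was the most crosslinked, and it lay below NEAT1 in 4 of 4 libraries. In control replicates 1 and 2 and TGFbeta1 replicates 1 and 2 GAS5 had 86.8, 42.8, 125 and 71.2 RPM. NEAT1 had 190, 126, 128 and 89.4 RPM (TMM-scaled), so the ranges over all libraries overlap. Of 49 listed, 19 had a site and 8 were tested; 0 passed with limma, 0 with edgeR and 0 with DESeq2, and 1 had an unadjusted p under 0.05. That was SNHG5, a host of small nucleolar RNAs, at 9.34 ± 7.91 RPM in controls and 24.0 ± 10.6 RPM after TGF-beta1 (TMM-scaled, SD, n = 2 each; limma adjusted p = 0.210). GAS5 had 64.8 ± 31.2 RPM in controls and 98.2 ± 38.3 RPM after treatment, against 158 ± 45.2 and 109 ± 27.6 RPM for NEAT1. NORAD, a cytoplasmic RNA that binds Pumilio proteins, had 41.4 ± 9.30 and 43.9 ± 5.69 RPM. OIP5-AS1, known for a conserved miR-7 site, had 33.8 ± 16.4 and 39.5 ± 7.76 RPM, with adjacent matches at 4 of its 5 sites and 23.1% of covering reads crosslinked. The median log2 difference of the 8 was 0.37, against 0.02 over all genes tested.

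The mRNAs of proteins that work with the lncRNAs did not pass the test either. Of 27 paraspeckle protein genes 24 had a site and 16 were tested; 0 passed with limma, edgeR or DESeq2, and 0 had an unadjusted p under 0.05 (median log2 difference 0.05). The splicing factor gene HNRNPA1 had 23.5 ± 6.69 RPM in controls and 24.0 ± 1.73 RPM after TGF-beta1. SFPQ, which binds NEAT1 in paraspeckles, had 8.26 ± 3.19 and 10.5 ± 3.58 RPM, with adjacent matches at 7 of its 23 sites. Of 23 genes of speckle and MALAT1-binding proteins 18 had a site and 13 were tested; 0 passed with limma, edgeR or DESeq2 (median 0.26). SON, a speckle scaffold, had 20.3 ± 3.66 and 19.04 ± 1.27 RPM, and SRRM2, the other scaffold, 10.2 ± 0.39 and 16.3 ± 2.96 RPM. The 1 with an unadjusted p under 0.05 was the splicing factor gene SRSF11, with a log2 difference of −1.28 (limma adjusted p = 0.223).

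Genes of like pattern were found as the 3 tested genes at the smallest Euclidean distance over the 4 libraries, on log2(TMM-scaled RPM + 1) values centred for each gene. For MALAT1 these were SMAD3, a signal transducer of TGF-beta receptors, at 0.152, KDELR2, a receptor that returns proteins to the endoplasmic reticulum, at 0.169, and SNORD45A, a small nucleolar RNA, at 0.180. The median gene lay at 1.20. SMAD3 had 6.64 and 3.38 RPM in the controls and 7.65 and 3.99 RPM after TGF-beta1, with replicate 1 the higher in both groups, as in MALAT1. For NEAT1 they were TOMM20, of the mitochondrial import receptor, at 0.132, PUM2, a Pumilio protein, at 0.162, and CDS1, of phospholipid synthesis, at 0.167, against 1.03 for the median gene. TOMM20 had 11.1 and 6.75 RPM in the controls and 6.80 and 5.13 RPM after treatment. MALAT1 and NEAT1 lay 0.788 apart. With 4 libraries such a distance is only a description.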

How the data were processed

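PAR-CLIP sites came from the authors' deposited table, which gives per site and library the reads with a crosslink and the reads that cover it, both in RPM of the library's total, per the file headers. Positions are on hg38 with GENCODE release 27, per the file headers. STAR 2.7.1a, bcl2fastq 2.20.0.422 and bedtools are named in the submitters' processing notes; the crosslink caller, with any filter it used, is not given in the sources used here. The authors' microRNA abundance is a score, depth-scaled reads rounded to whole numbers and added over microRNAs of one seed, per the file headers. The RPM steps gave whole reads for 100% of values within 0.1 reads, from which depth was recovered. No molecular identifiers are named, so intervals cover counting error only. The table also has 4 columns for samples outside this series; these were not used, nor was a second deposited list that repeats the positions.

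Sites with exactly the same gene name were summed. The reported test is limma 3.58.1 with a variance trend, two-sided, on log2(TMM-scaled RPM + 1), with the filter of edgeR 4.0.16 (filterByExpr, minimum count 10) and Benjamini-Hochberg adjustment over all genes or sites tested; the pseudocount of 1 understates changes of low values. diffSplice set sites against their gene. Alternatives were edgeR's quasi-likelihood test and DESeq2 1.42.0 on recovered reads (R 4.3.3), other pseudocounts, filters and scalings, covering reads, the replicate number as a block, and each library left out. The limma gene and site tests and diffSplice, but not the other tests, were tried on simulated data. With limma, of genes changed 4-fold 62.5% were recovered and of sites 43%. Changes were put only in genes or sites with at least the median reads of those passing the filter, so recovery of less-read ones was not measured. The simulation used a common dispersion for all genes or sites and, apart from the changes, the same composition in all libraries. The real libraries had site TMM factors from 0.613 to 1.51, so recovery in them may differ. Libraries sharing a replicate number deviated together at a correlation of 0.131 over genes and 0.117 over sites, with 2 pairs, and were not taken as pairs. Values per library were compared by exact permutation over libraries.

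MALAT1 and NEAT1 and the gene lists were chosen with earlier results of these data known. Sites named are the most crosslinked 8 per gene, those passing a test and the 4 most read with a match, of which those the text turns on are given; genes of like pattern are the nearest 3; listed genes are the highest 3 and any that passed, and others named were chosen after their values were seen. Some genes these rules pick are not reported here.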

Additional observations from a re-analysis of the deposited data

How the results depend on the processing

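With 2 libraries a group, and sites of a few reads, most single sites could not be tested. NEAT1 kept its direction and stayed above an adjusted p of 0.05 in all 15 alternatives (log2 difference −1.07 to −0.17; lowest adjusted p = 0.0504), and without single libraries it ranged from −0.83 to −0.17. The MALAT1 difference turned to −0.39 without TMM scaling, −0.043 with covering reads at all sites and −0.017 where only sites with a crosslink in all 4 libraries entered, and ranged from −0.34 to 0.70 without single libraries; its adjusted p was never under 0.05, and the cause was not tested. In the fit with a replicate block the adjusted p was 0.400 for MALAT1 (0.15) and 0.0504 for NEAT1 (−0.53), and 0 sites passed, so the block changed no call. The number of sites passing was 8 with covering reads at sites that all 4 libraries crosslinked, and ranged from 0 to 1 without single libraries; it was 0 in the other settings, and the 0 of the test against the rest of the gene stayed 0 in both alternatives run. The log2 ratio of NEAT1 to MALAT1 ranged from −0.889 to −0.484. The change in the share of reads at matched sites was −0.0166 percentage points in MALAT1 with covering reads at the same sites; in NEAT1 it was −1.26 there and −1.19 with matches to all of bases 2 to 8, and ranged from −4.65 to 12.5 without single libraries. The cause of these was not tested. Differences from 3′ UTRs, whose alternatives were chosen after seeing the data, kept their direction in each. diffSplice uses no trend, so a fit of it without a trend is the same and was not run.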
